A study of Astatotilapia calliptera with 66 samples.

Results

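Astatotilapia calliptera is a cichlid fish of rivers and lakes in East Africa, and in the crater Lake Masoko it occurs as a littoral ecomorph in shallow water and a benthic ecomorph in deep, oxygen-poor water. Riverine fish of the same species live in the neighbouring Mbaka River, a likely source of the lake fish. The CG sites described here are those at which the livers of riverine fish differed in the same direction from those of both lake ecomorphs. They are called the shared sites. Members were selected on the measured means of the 3 populations, as the sites on linkage groups where the riverine mean lay at least 25 percentage points above, or at least 25 points below, both the littoral and the benthic mean. Of 135040 sites on linkage groups, 1471 met this rule (1.09%). A further 2 sites passed 25 points in both comparisons with opposite directions. Opposite directions need littoral and benthic means that lie far apart, so nothing is read from this small count.

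Methylation was measured by reduced-representation bisulphite sequencing (RRBS) in the livers of 35 wild-caught adult males, 11 riverine, 12 littoral and 12 benthic. No fish was treated, and each fish gave a single library. In RRBS the DNA is cut with MspI, an enzyme that cuts at CCGG whether or not the CG is methylated, and bisulphite converts unmethylated cytosine so that it is read as T. The value of a site in a fish is the percentage of reads that kept the C. How many reads a value rests on is not given, which leaves the precision of single values unknown, and values of 0 or 100% can rest on few reads. Riverine fish came from local fishermen and lake fish from divers, so place and way of collection cannot be told apart from population. Of the 35 fish, 5 had fewer than 6 Mio mapped reads, 4 of them littoral and 1 benthic. Livers are mixtures of cells, so a difference in cell composition and a difference within cells cannot be told apart in these values. Liver RNA of 13 wild males showed high levels of fgb, which encodes the beta chain of fibrinogen made by hepatocytes, at between 5683 and 14470 TPM (transcript abundance relative to all transcripts, corrected for length).

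In vertebrate genomes most CG sites carry methyl groups in nearly every cell, and unmethylated sites gather in CG-rich stretches, often near gene starts. Dnmt1 copies the methylation of the old DNA strand onto the new one after replication, guided by Uhrf1, while Dnmt3 enzymes add new methyl groups and Tet enzymes start their removal. Because these enzymes work along stretches of DNA, neighbouring CG sites usually share their state. A site in a diploid cell can also differ between the copies inherited from each parent, which gives an intermediate percentage in a pure tissue. No annotation of the genome build of these sites was used here, so no site is assigned to a gene.

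Of the 1471 shared sites, 821 were more methylated in the lake and 650 were less methylated in the lake. At the 821 sites, the median of the population means was 42.4% in the river, 84.2% in littoral fish and 87.4% in benthic fish. At the 650 sites it was 71.3% in the river, 18.2% in littoral fish and 16.8% in benthic fish. Both lake populations therefore sat near the ends of the scale in both sets of sites, and the riverine median lay farther from the ends. These levels follow in part from the rule and carry no test. The smaller of the 2 riverine differences had a median of 35.6 points, reached 50 points at 306 sites and 75 points at 31 sites. The highest was 95.5 points.

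The edge of the rule was narrow. Just inside it were a site at position 607602 of NC_036785.1, with a smaller difference of 25.011 points, and a site at position 38314957 of the same sequence, with 25.013 points. Just outside were a site at position 21630274 of NC_036798.1, with 24.994 points, and a site at position 27258244 of NC_036789.1, with 24.992 points. Positions here are those of the Maylandia zebra assembly UMD2a, to which the authors aligned the reads.

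The shared sites were found on all 22 linkage groups. They made up between 0.852% of the sites of NC_036788.1 and 1.68% of the sites of NC_036796.1. The largest number was 104, on NC_036786.1. Sites with more methylation in the lake were the majority on 17 linkage groups and the minority on 5. On NC_036788.1 only 7 of 32 shared sites were higher in the lake, and on NC_036793.1 49 of 69 were. No test was made between linkage groups.

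With limma on all 147188 sites that varied between fish, 809 of the 1471 shared sites (55%) were called in the comparison with littoral fish and 1156 (78.6%) in that with benthic fish. For a call, the adjusted p had to be under 0.05 and the means 25 points apart or more. Over all sites tested, 0.692% and 3.36% were called in these 2 comparisons. Since the rule used the same contrasts, nothing is read from the shares. At the other 662 sites the riverine-to-littoral difference passed 25 points without passing the adjusted threshold.

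Riverine fish varied most at the shared sites. The median standard deviation between fish was 27.2 points for riverine, 20.1 points for littoral and 16.6 points for benthic fish. Over all sites on linkage groups the 3 medians were alike, at 6.42, 6.50 and 6.51 points. Part of this spread follows from the level, since a mean near the middle of the scale allows more spread than a mean near its ends. Among the 657 shared sites with a riverine mean between 35 and 65%, the median standard deviation between riverine fish was 32.2 points, and at other sites with such a mean it was 19.6 points. The same held for littoral fish (32.4 points at 299 shared sites and 22.6 points at other sites) and benthic fish (31.9 points at 266 shared sites and 22.6 points at other sites). With means in this range, the medians of the 3 populations at the shared sites were thus alike. The rule favours sites with a wide spread between fish, since such sites more often give distant means, so these values are a description of the sites chosen.

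At 801 of the 1471 shared sites (54.5%), the riverine fish included at least 1 fish at 80% or more and at least 1 fish at 20% or less. Over all sites on linkage groups, most of which lie near the ends of the scale in every fish, this was so at 4.32%, a share that is not matched for level. The rule itself requires riverine means that differ from the lake, so nothing is read from the contrast. Littoral fish spanned both extremes at 482 shared sites and benthic fish at 412. Values between 20 and 80% made up 42.7% of riverine values, 29.9% of littoral values and 27.6% of benthic values at the shared sites, compared with 15.6%, 13.6% and 13.3% over all sites on linkage groups.

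Lake fish were uniform at a small part of the shared sites. All 24 lake fish were at 80% or more at 60 sites and at 20% or less at 84 sites. At these 144 sites, the riverine fish spanned both extremes at 115. At 131 of the 144, at least 1 riverine fish was on the side of the lake fish, and at 5 of them 7 of the 11 riverine fish were. The state found in every lake fish was also present in at least 1 riverine fish at these 131 sites. The reverse, with all 11 riverine fish on the same side, was found at 88 shared sites, 37 of them at 80% or more and 51 at 20% or less. Only 1 site had both the riverine fish and the lake fish uniform, on opposite sides. Shares over all sites were not computed for these counts. The rule asks for distant means and not for uniform fish, so nothing is read from the counts.

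The values of riverine and lake fish did not overlap at 37 shared sites, 13 higher and 24 lower in the lake. Over all sites on linkage groups, 0.0274% did not overlap (the same 37 sites). The rule used this contrast, so nothing is read from the count. Their smaller riverine difference ranged from 40.9 to 95.5 points. With at most 1 fish on the other side, 126 shared sites qualified. The share over all sites was not computed for this looser count, so nothing is read from it either.

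Among single sites outside the 6 named clusters, the 5 with the largest gain and the 5 with the largest loss of methylation in the lake all had riverine and lake fish that did not overlap. At position 19049224 of NC_036783.1, riverine fish had between 0 and 4.00% (median 1.49%), littoral fish between 57.9 and 99.2% (median 96.6%) and benthic fish between 50.0 and 98.9% (median 95.3%). All 11 riverine fish were nearly unmethylated there and 22 of the 24 lake fish were above 80%. A second site on the same sequence, at position 19049010, had riverine values between 0 and 1.44%, littoral values between 25 and 100% and benthic values between 40.5 and 100%. At position 220038 of NC_036793.1, 9 riverine fish were at 20% or less and the highest reached 64.8%, while no lake fish was below 77.5%. At position 1385076 of NC_036790.1, 8 riverine fish were at 20% or less, 3 lay between 20 and 80%, and every lake fish was at 93.2% or more. The fifth, at position 21862958 of NC_036800.1, had riverine values up to 26.3% and lake values from 47.6%.

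The sites with the largest loss of methylation in the lake had riverine fish near full methylation. At position 9591741 of NC_036791.1, 10 of 11 riverine fish were above 80% (median 100%, lowest 69.2%), littoral fish were at 0.685% or less and benthic fish at 15.2% or less. At position 5414529 of NC_036794.1, riverine fish ranged from 82.5 to 99.6% (median 95.0%), littoral fish from 0 to 4.07% and benthic fish from 0 to 0.704%. This was the site with riverine and lake fish uniform on opposite sides. At position 8117027 of NC_036788.1, riverine fish were at 85.5% or more, all 12 benthic fish were at 0% and a single littoral fish stood at 50.0%. The site at position 2819795 of NC_036787.1 ranged from 77.5 to 100% in riverine fish and from 0 to 20% in lake fish. At position 16615873 of NC_036786.1, 2 riverine fish lay near the middle, the lowest at 44.2%, while the others were above 80%, and lake fish reached at most 22.9%. Intermediate fish therefore appeared on either side of the contrast.

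**Figure D1:**
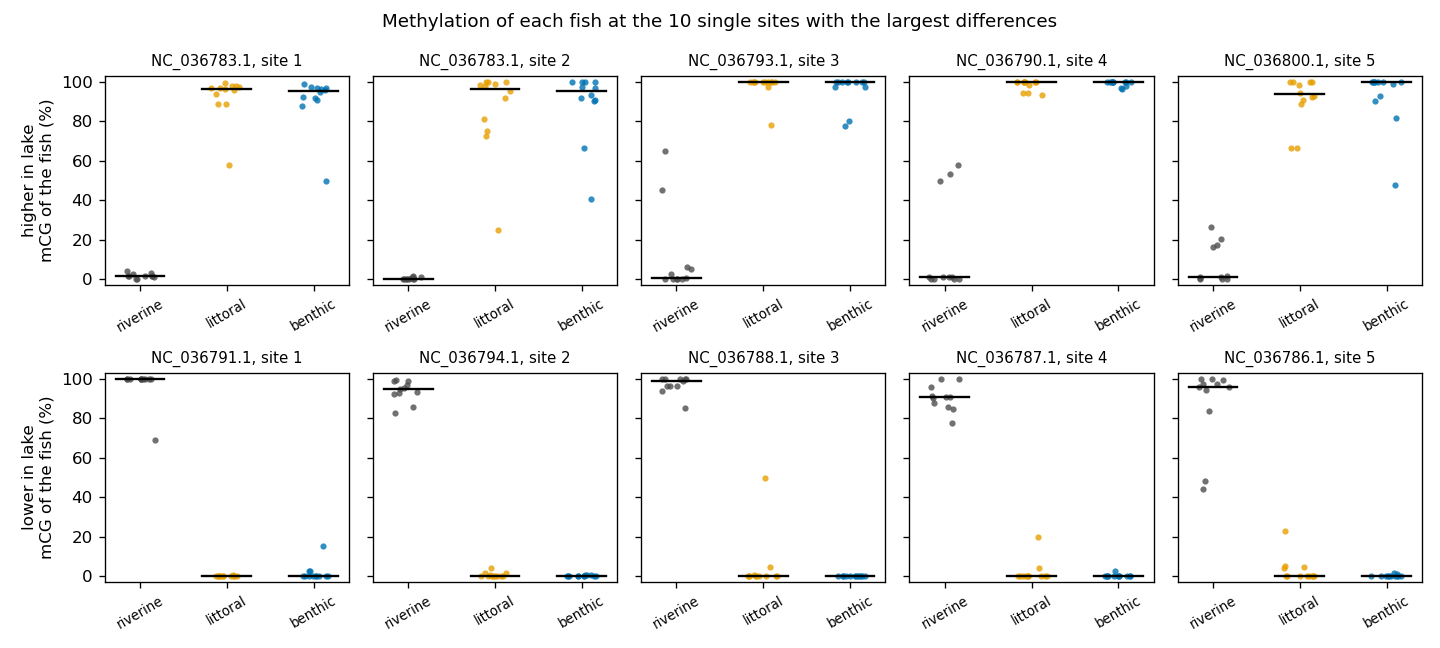
Methylation (%) of each of the 35 fish at the 10 single shared sites with the largest differences, 5 higher in the lake (upper row) and 5 lower in the lake (lower row). Points are fish and bars are population medians. Riverine and lake fish do not overlap in any panel, and single fish lie near the middle of the scale in several.

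The neighbours of these sites differed far less than the sites themselves. A CG was listed within 50 bp of 9 of the 10, and its own lake minus riverine difference was between -0.144 and 0.0727 of the difference at the member. At position 19049224 of NC_036783.1, the CG 4 bp away had a riverine mean of 87.2%, a littoral mean of 93.5% and a benthic mean of 93.1%. At position 220038 of NC_036793.1, the CG 19 bp away had 96.2%, 96.5% and 94.5%. At position 16615873 of NC_036786.1, the CG 6 bp away had 98.0%, 97.6% and 98.4%. The exception in size was the CG 8 bp from position 5414529 of NC_036794.1, which had a riverine mean of 71.3%, a littoral mean of 87.3% and a benthic mean of 82.1% and so moved the opposite way to the member.

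The nearest other CG was not used by the rule for the member itself, although it could be a member too. It was listed within 50 bp for 1288 of the 1471 shared sites, at a median distance of 9 bp. The lake minus riverine difference of this neighbour, divided by that of the member, had a median of 0.24, and its distribution had 2 peaks. At 585 members (45.4%) the ratio was within 0.2 of 0, so that the neighbour hardly differed, and at 549 members (42.6%) it was at least 0.6, so that the neighbour moved with the member. Between the peaks lay 109 members, and at 45 members the neighbour moved the opposite way. These bounds were chosen after the ratios had been seen. Of the 549 neighbours that moved with the member, 433 were shared sites themselves. Over all sites on linkage groups with such a neighbour, the neighbour differed by at least 25 points at 1.88%, compared with 40.2% at the shared sites. It differed by less than 5 points at 77.7% of all these sites, compared with 37.0% at the shared sites. Neighbours within a read length are partly read from the same molecules.

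**Figure D2:**
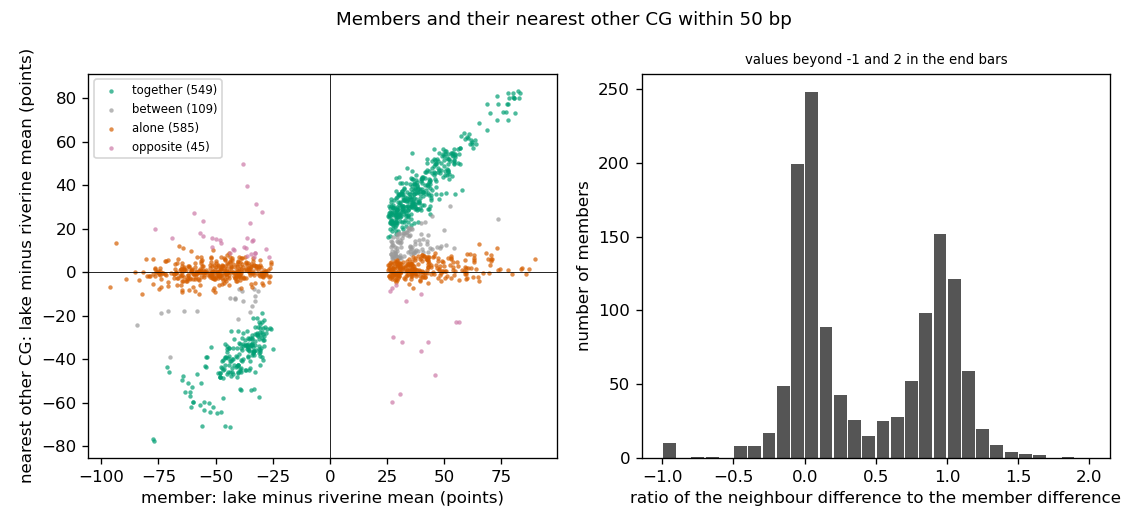
Left, lake minus riverine mean (percentage points) of the nearest other CG within 50 bp against that of the shared site, for 1288 shared sites coloured by the ratio of the 2 values. Right, number of shared sites by that ratio in bars of width 0.1. A band along 0 (585 sites) and a band along the diagonal (549 sites) stand apart, with 109 sites between them.

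The shared sites thus fell into sites that stood alone and sites that moved with their surroundings, and these differed in direction. Of the sites that stood alone, 246 were higher and 339 lower in the lake. Of those that moved with the neighbour, 357 were higher and 192 lower. Sites close together share reads and are not independent, so these counts are a description and carry no test. The levels around them differed too, which follows in part from how the sites were divided. The neighbour of a site that stood alone had a mean of at least 80% over all fish in 544 of 585 cases (93.0%). For sites that moved with their neighbour this was so in 77 of 549 cases (14.03%). A neighbour that moved with its member had to differ between river and lake itself, which leaves less room for so high a mean. Nothing is therefore read from the contrast between these shares. Over all sites on linkage groups, whether or not they were such neighbours, 51.3% had a mean of at least 80%. A neighbour at this level was found at 230 of 246 gains and at 314 of 339 losses. The member itself had a riverine or a lake mean of at most 50% at 441 of the 585 sites, and 406 of these had a neighbour with a mean of at least 80%. The others stayed above 50% in both, such as the site at position 607602 of NC_036785.1, with means of 73.0% in the river and 98.0% or more in the lake.

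The share of sites that stood alone was higher at larger differences, where the bound of 0.2 also allows the neighbour to move by more points. Of 615 sites with a smaller difference between 25 and 35 points, 34.5% stood alone and 49.3% moved with the neighbour. Between 35 and 50 points, 47.1% of 401 sites stood alone. Between 50 and 75 points, 67.6% of 244 sites did, and 27.0% moved with the neighbour. Of the 28 sites with 75 points or more, 19 stood alone and 7 moved with the neighbour. With a fixed bound of 5 points on the neighbour, added after seeing the data, the shares in these 4 classes were 31.2%, 36.2%, 51.6% and 50.0%. The classes use the values of the rule, so the shares carry no test. Of the 34 sites without overlap between riverine and lake fish that had a neighbour in reach, 24 stood alone.

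For a comparison, the neighbour was examined in the same way at the sites that separated riverine fish from benthic fish only. There were 4583 such sites, 3944 of them with a neighbour within 50 bp. The 4583 include the 2 sites that passed 25 points in both comparisons with opposite directions. By the riverine-to-benthic difference, 6.62% of these stood alone and 81.9% moved with the neighbour, and 85.0% were higher in benthic fish. By the same measure, 44.3% of the shared sites stood alone and 42.5% moved with the neighbour, and 54.9% were higher in benthic fish. The shared sites also had the larger differences, with a median of 41.0 points compared with 32.3 points. Both sets were selected on these means, and sites are not independent replicates, so no test was made. The 515 sites that separated riverine fish from littoral fish only, counted in the same way, were not examined as a set. Whether the contrast is particular to the shared sites is therefore not known.

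The other strand of a CG gives a separate reading of the same site. For 240 shared sites the cytosine on the other strand was listed, and at 186 of these it was a shared site too. Its difference had the same direction in 239 of 240 cases, with a median of 0.97 of the difference at the member. At the 54 sites whose other strand had not met the rule, the ratio had a median of 0.78, and the other strand differed by a median of 24.5 points, just under the threshold. Sites that stood alone repeated on the other strand as closely (median ratio 0.98, 113 sites) as those that moved with their neighbour (0.95, 94 sites). In 2 cases the other strand moved by less than 0.2 of the member.

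Bisulphite sequencing reads a T in the genome in the same way as an unmethylated C, and a CG lost by such a change, or by a change of its G that removes the C of the other strand, has no methylation to measure. The reads were aligned to the genome of M. zebra, another species of the Lake Malawi group. The paper describes a version of this genome corrected for variants of A. calliptera. A figure legend of the paper states that RRBS reads were aligned to it, while the RRBS methods refer back to the same reference genome. Such a correction would not cover variants within the species. No genotypes of these fish were used. Whether sites that stand alone carry a difference in DNA sequence between or within the populations was not tested.

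When chained at gaps of up to 100 bp, the 1471 shared sites formed 222 clusters of 2 or more with 658 sites and left 813 sites single. A total of 44.7% had another shared site within 100 bp. Of all sites on linkage groups, 93.5% had another listed site of any kind within that distance. The 2 shares count different neighbours and are not compared. Of the 222 clusters, 210 held sites of 1 direction only. There were 86 clusters of 3 or more, of which 51 were higher in the lake throughout, 34 were lower throughout and 1 held both directions. The largest held 12 sites. The 6 clusters named here have the most sites, and 4 clusters of 8 sites tied for the last 2 places. The 2 with the larger mean difference were taken. Those left out lie at NC_036801.1:690150-690173 (riverine mean 43.0%, littoral mean 87.0%, benthic mean 89.0%) and NC_036795.1:21713841-21713970 (66.1%, 94.1% and 95.4%).

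The cluster at NC_036785.1:38352532-38352612 held 12 shared sites in 8 CG dinucleotides over 81 bp, all higher in the lake. Averaged over its sites, the 12 littoral fish ranged from 85.6 to 97.0% (median 95.2%) and the 12 benthic fish from 83.5 to 98.2% (median 94.9%). Riverine fish ranged from 6.93 to 96.6% (median 53.8%), with 4 fish at 20% or less, 3 at 80% or more and 4 between. Each lake fish was methylated here, and the riverine fish filled the whole scale.

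Another cluster of 12 sites, at NC_036792.1:3639195-3639337, was lower in the lake. Riverine fish ranged from 1.06 to 87.5% (median 37.6%), littoral fish from 0.0998 to 33.9% (median 2.44%) and benthic fish from 0.493 to 7.30% (median 2.31%). All benthic fish and 10 littoral fish were at 20% or less, as were 4 riverine fish. The 11 sites at NC_036790.1:27795731-27795830 showed the same arrangement, with riverine fish from 0 to 90.4% (median 49.5%), 11 of 12 littoral fish and 11 of 12 benthic fish at 20% or less, and a single fish of each lake population above 60% (65.4% and 62.4%). In both clusters low methylation was the state of nearly all lake fish and of 4 riverine fish.

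At NC_036801.1:24118396-24118577, 9 sites over 182 bp were lower in the lake, and here the lake fish varied. Riverine fish had a median of 90.9%, with 7 of 11 at 80% or more and the lowest at 3.46%. Littoral fish ranged from 0 to 55.9% (median 27.0%) and benthic fish from 7.54 to 74.9% (median 24.8%). No lake fish reached 80%, and 6 fish of each lake population were at 20% or less.

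The cluster at NC_036799.1:29372811-29372878 came closest to a fixed difference among the 6. Its 8 sites had riverine values from 1.25 to 46.1% (median 7.001%), 10 of 11 fish being at 20% or less. All 12 benthic fish were at 90.1% or more (median 95.4%), and 9 of 12 littoral fish at 80% or more, with the lowest at 33.9%. At NC_036786.1:26233972-26234017, 8 sites in 4 CG dinucleotides had riverine values from 0 to 40.1% (median 3.31%). Littoral fish were spread from 0 to 92.0% (median 42.4%), with 4 fish at 20% or less, 4 at 80% or more and 4 between, and benthic fish ranged from 2.68 to 99.7% (median 93.5%), with 8 fish at 80% or more. Littoral fish were thus between riverine and benthic fish at this cluster, and the 3 populations overlapped.

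**Figure D3:**
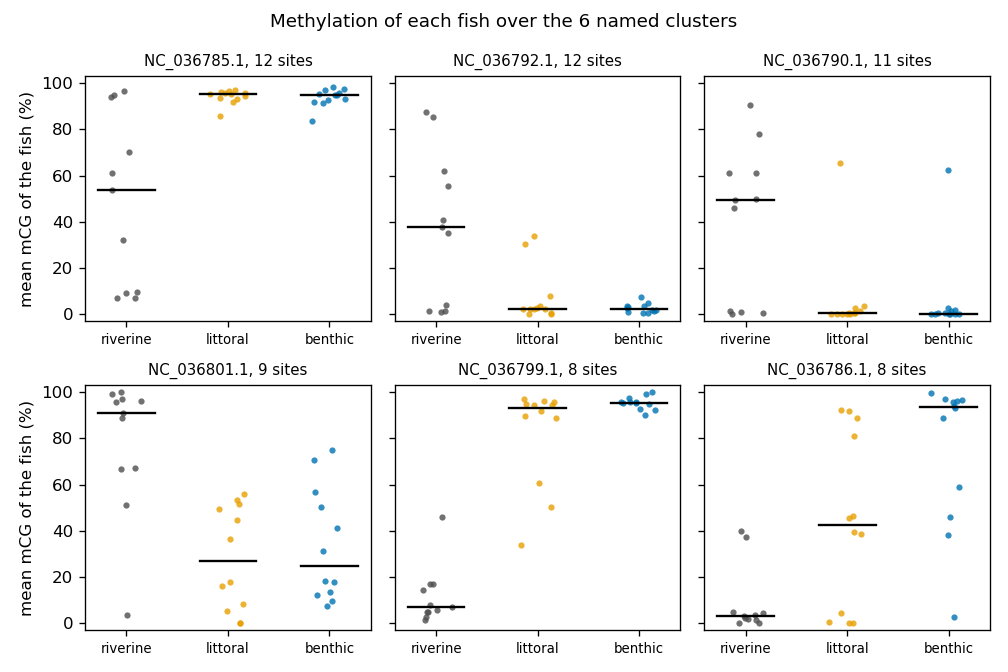
Mean methylation (%) of each fish over the shared sites of the 6 named clusters, by population. Points are fish and bars are medians. In the first panel all 24 lake fish lie above 83% while riverine fish run from 6.93 to 96.6%, and in the fifth panel 10 of 11 riverine fish lie at 20% or less.

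Over the fish and the named clusters, the standard deviation over the sites of a cluster had a median of 5.96 points. Many fish lay near the ends of the scale, where little spread is possible, and this lowers the median. Fish near the middle of the scale differed widely in this spread. It was 4.33 points in a littoral fish with a mean of 45.4% at the NC_036786.1 cluster. In a benthic fish with a mean of 50.2% at the NC_036801.1 cluster it was 38.6 points. The clusters took up all CG sites listed within 400 bp of their centre, except for 2 of the 14 sites at the NC_036792.1 cluster. How far each change extends beyond the cut fragment was therefore not measured.

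**Figure D4:**
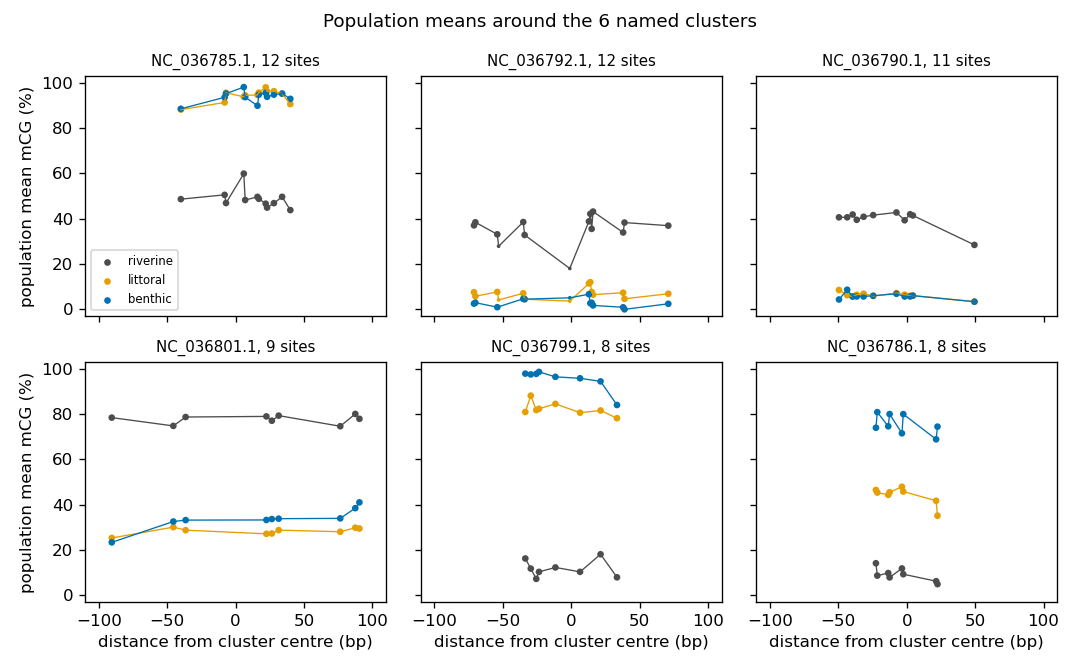
Population mean methylation (%) at each listed CG site against its distance (bp) from the centre of the 6 named clusters. Large points are shared sites and small points other sites. Riverine means stay apart from both lake means along each cluster, and littoral means lie between the riverine and benthic means at the NC_036786.1 cluster.

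Within a population, fish that were high at a shared site tended to be high at shared sites close by. For pairs of shared sites up to 50 bp apart, excluding both strands of 1 CG, the median correlation over the 11 riverine fish was 0.90 (705 pairs), with 0.80 over the 12 littoral and 0.71 over the 12 benthic fish. For pairs over 100 and up to 1000 bp apart the riverine median was 0.67 (105 pairs), up to 10000 bp it was 0.37 (83 pairs), and up to 100000 bp it was 0.05 (411 pairs). Between linkage groups it was -0.01. Values were signed so that 1 means that fish closer to the lake level at a site were closer to it at the other too. Pairs within a read length share molecules and library, and pairs share sites, so the correlations are given as a description. Riverine fish that were closer to the lake level at a shared site were thus mostly closer to it at sites nearby and had no such tendency at distant sites.

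The position of each fish was measured on sites chosen without it. Each fish was left out in turn, the rule was applied to the other 34 fish, and the value of the left-out fish at each site chosen was placed between the riverine mean (0) and the lake mean (1) of the others. Between 1444 and 1560 sites were chosen, of which 1342 to 1445 were among the 1471. The mean position was 0.137 ± 0.043 in riverine fish (s.d., n = 11), 0.908 ± 0.028 in littoral fish (n = 12) and 0.996 ± 0.024 in benthic fish (n = 12). Riverine fish ranged from 0.0752 to 0.223, littoral fish from 0.866 to 0.956 and benthic fish from 0.952 to 1.03. On average over sites it had not helped to choose, every lake fish was thus nearer to the lake mean of the others. Every riverine fish was nearer to their riverine mean. The fish that set these means had helped to choose the sites. The mean distance between lake and riverine fish was 0.82 of that in the fish used for the choice.

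**Figure D5:**
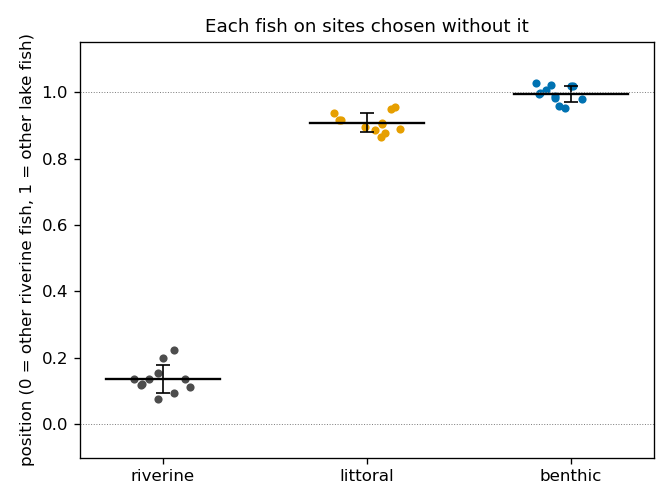
Mean position of each fish on the shared sites chosen without it, on a scale from the riverine mean (0) to the lake mean (1) of the other fish. Points are fish, and bars are population means with the standard deviation. Riverine fish lie at or below 0.223 and lake fish at or above 0.866.

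A riverine fish that was left out was nearer to the lake mean than to the riverine mean at 27.7 to 36.2% of the sites. For littoral fish this share was 76.1 to 83.5%, and for benthic fish it was 81.1 to 86.9%. Littoral fish were slightly less far from the riverine level than benthic fish, and 1 of 12 littoral fish reached the lowest benthic fish. Outside the shared sites, 4583 sites passed 25 points in the benthic comparison and 515 in the littoral comparison. Both counts include the 2 sites that passed in both with opposite directions. The littoral mean thus decided more often whether a site met the rule, and this order may follow in part from that. The 8 littoral fish with at least 6 Mio mapped reads had the same range, from 0.866 to 0.956. The fish share most of their reference samples, so the positions are not independent and carry no test.

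The lake ecomorphs differed little at the shared sites, which follows in part from the rule. Their means were less than 10 points apart at 1064 of the 1471 sites (median 5.04 points) and at least 25 points apart at 49. The littoral mean lay between the riverine and benthic means at 872 sites (59.3%) and the benthic mean between the riverine and littoral means at 589. With limma, 8 of the 1471 shared sites (0.544%) were called between littoral and benthic fish, compared with 1.61% of all sites tested. The same 8 had an adjusted p under 0.05 without a threshold on the difference, compared with 2.00% of all sites tested. The rule places both lake means on the same side of the riverine mean by at least 25 points, which bounds their difference. Neither the closeness of the means nor the lower share is therefore a result about the lake fish. Of the 8 sites, 7 had benthic fish farther from the riverine mean and 1 had littoral fish farther.

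The largest of these differences was at position 22091827 of NC_036781.1. Riverine fish ranged from 70.6 to 100% (median 100%), littoral fish from 0 to 82.4% (median 0%) and benthic fish from 0 to 100% (median 82.6%). Benthic fish were 53.4 points above littoral fish (SE 11.0, limma adjusted p = 0.00479), and this was the site where littoral fish were farther from the riverine fish. Leaving out the 5 fish under 6 Mio mapped reads gave 56.1 points (adjusted p = 0.0228).

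At position 30817230 of NC_036789.1 the 3 populations formed a step. Riverine fish had a median of 90.2% (46.4 to 100%), littoral fish a median of 56.6% (0 to 74.2%) and benthic fish a median of 0% (0 to 2.86%). Benthic fish were 45.4 points below littoral fish (SE 8.21, limma adjusted p = 0.00147). All 12 benthic fish were at 20% or less, with 3 of 12 littoral fish and no riverine fish. A further called site on the same sequence, at position 30793571, was 28.9 points lower in benthic than in littoral fish (SE 6.27, limma adjusted p = 0.00742).

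At both sites of NC_036786.1 named by this contrast, the littoral median lay between the other populations. At position 9474269 of NC_036786.1, riverine fish had a median of 0% (0 to 31.2%), littoral fish 50.6% (0 to 98.3%) and benthic fish 89.9% (48.4 to 98.8%), with a benthic minus littoral difference of 38.2 points (SE 9.48, limma adjusted p = 0.0217). At position 26234017 of the same sequence, the last site of the 8-site cluster described above, the difference was 39.3 points (SE 10.4, limma adjusted p = 0.035). At position 8227211 of NC_036798.1 most littoral fish were at the riverine level, with a riverine median of 98.1%, a littoral median of 97.1% and a benthic median of 2.30%. There 11 of 11 riverine and 7 of 12 littoral fish were at 80% or more and 8 of 12 benthic fish at 20% or less, a difference of -47.3 points (SE 12.0, limma adjusted p = 0.0248). Without the 5 fish under 6 Mio mapped reads, only the sites at 22091827 of NC_036781.1 and 9474269 of NC_036786.1 kept an adjusted p under 0.05 among the 8 (0.0228 and 0.00875).

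Expression of the genes that write, copy, remove and read methylation was examined in the liver RNA of 13 males (4 riverine, 4 littoral and 5 benthic). By their labels, all 13 are also among the 35 RRBS fish. Of 33 genes on the list, 11 were found by symbol and 10 had a mean of at least 0.1 TPM. None was called in any of the 3 comparisons with limma on log2(TPM + 0.1), where a call needed an adjusted p under 0.05, an absolute log2 difference of 1.5 and 10 TPM in any fish. Only gadd45b and gadd45g reached 10 TPM, and the other 8 genes, at 4.56 TPM or less, could not be called whatever their difference. Over all 21147 genes tested, 0.761% were called from riverine to littoral, 2.93% from riverine to benthic and 0.222% from littoral to benthic fish. An unadjusted p under 0.05 was found for 4, 5 and 0 of the 10 genes, and for 18.9%, 32.8% and 10.9% of all genes tested. In bulk RNA, fewer cells of a type and less RNA per cell cannot be told apart.

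Transcripts of dnmt1, the enzyme that copies methylation at replication, were low. Riverine fish had 0.196, 0.574, 0.278 and 0.124 TPM, littoral fish 0.9999, 1.19, 1.14 and 0.899 TPM, and benthic fish 0.672, 1.497, 0.662, 1.06 and 2.82 TPM. Each lake fish was above each riverine fish. The log2 difference from riverine fish was 1.80 in benthic (SE 0.46, limma adjusted p = 0.0279) and 1.67 in littoral fish (SE 0.48, limma adjusted p = 0.0886). The partner of dnmt1, uhrf1, differed by 2.10 between riverine and benthic fish (SE 0.56, limma adjusted p = 0.0322), at no more than 2.16 TPM. The zinc-finger gene zbtb38, whose human counterpart binds methylated DNA, differed by 1.61 (SE 0.45, limma adjusted p = 0.0375), at no more than 1.52 TPM. All 3 were below the level of 10 TPM that a call needed.

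The 4 riverine RNA libraries and 1 littoral library were sequenced in 1 run and the other libraries in another, so the run and the river-lake contrast can hardly be told apart. With the run as a covariate, the riverine-to-benthic log2 difference was 1.719 for dnmt1 (SE 0.92, adjusted p = 0.408), 2.72 for uhrf1 (SE 1.12, adjusted p = 0.265) and 1.8597 for zbtb38 (SE 0.90, adjusted p = 0.35). For these 3 genes the differences were about as large or larger, and the standard errors were about 2 times as large. The stress-response gene gadd45g, which has been linked to removal of methylation, had 757.5, 788.9, 595.7 and 106.6 TPM in riverine fish, 140.1, 34.9, 26.3 and 24.3 TPM in littoral fish and 38.8, 99.7, 71.4, 519.4 and 403.0 TPM in benthic fish. Riverine and littoral fish overlapped through 1 fish each. The riverine-to-littoral log2 difference was -3.39 (SE 0.87, limma adjusted p = 0.0646). It passed the threshold without the littoral fish of the riverine run (-3.97, adjusted p = 0.0451), and it was -1.66 with the run as a covariate (adjusted p = 0.617). The riverine-to-benthic log2 difference of gadd45g was -1.63 (SE 0.82). With the run as a covariate it changed sign, to 0.68 (SE 1.55).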

How the data were processed

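Livers of wild males were studied by RRBS (35 fish) and RNA sequencing (13 fish). The authors digested DNA with MspI, trimmed single-end reads with Trim Galore, aligned them with Bismark to the M. zebra assembly UMD2a, and deposited methylation in percent of reads, for CG sites covered in every fish. Fish were not normalized to each other. Column names point to a minimum of 4 reads per site and fish. Read counts per site are not given, so no counting interval was computed. The authors quantified transcripts with kallisto and deposited TPM per transcript, also not normalized further. WGBS data were not used here.

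Columns were assigned to fish from their names, and 0 columns remained unassigned. Shared sites were found from unweighted population means. The mitochondrial sequence and unplaced scaffolds were left out. Adjacent listed positions were taken as both strands of a CG. The limma package (3.58.1, R 4.3.3, with a mean-variance trend) served for linear models of all 3 populations, with adjustment of p by Benjamini-Hochberg over all sites or genes tested. The procedure was tested on simulated data, with normal values drawn independently for each site or gene and large shifts added to some. These values lack the correlation between neighbouring sites, so the accuracy of calls in the real data was not measured. TPM were summed by symbol. Other values were computed in Python 3.11.15 (numpy 2.4.6, pandas 2.3.3). Mapped reads per fish, from the sequencing table of the study, served only as a covariate and to leave out 5 fish.

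Named sites were the 6 clusters with the most shared sites (ties broken by the larger mean difference), the 5 other sites per direction with the largest smaller riverine difference, the 2 nearest sites on each side of the threshold, and the 5 sites with the largest difference among those called between littoral and benthic fish. Other named sites, and dnmt1, uhrf1, zbtb38 and gadd45g, were chosen after their values were seen. The sites, the gene list and the tests were chosen with earlier results of these data known. An analysis of genes near the sites was planned and not made, because no annotation of the same build was at hand.

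The alternatives were other thresholds, medians, all sequences, depth as a covariate, log ratios, fits of 2 populations, other windows and gaps, and leaving out fish. For RNA they were other pseudocounts, no filter, another scaling and the run as a covariate, all chosen after seeing the data.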

Additional observations from a re-analysis of the deposited data

Results flagged for a closer look

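The effects of the river-lake contrast differed between the lake ecomorphs, by the test of the difference itself, at 8 of the 1471 shared sites (0.544%), compared with 1.61% of all sites tested. The rule bounds this difference, and without the 5 fish under 6 Mio mapped reads 2 shared sites were called. These are the sites called between littoral and benthic fish, such as position 22091827 of NC_036781.1 and position 30817230 of NC_036789.1.

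Unplaced scaffolds, which were not used for the shared sites, held 145 sites that met the same rule, of 16737 sites listed there.

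In liver RNA, single fish stood apart from the rest of their population in 3 of 30 groups examined (10 genes in 3 populations), by Dixon's test on TPM. For normal values chance gives about 1 in 20. Whether TPM are normal was not tested, and the groups share the same fish, so the rate for these data is not known. They were a littoral fish with 2.88 TPM of mbd4, a DNA repair glycosylase gene, a riverine fish with 72.3 TPM of gadd45b, and a littoral fish with 140.1 TPM of gadd45g. The last is the littoral fish sequenced with the riverine fish.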

How the results depend on the processing

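The number of shared sites followed the threshold, with 2292 at 20 points, 551 at 40 points and 306 at 50 points. It was 1852 with medians (1274 of the 1471 sites included), 1616 with unplaced scaffolds and 1551 without the 5 fish under 6 Mio mapped reads (1324 included), and it ranged from 1444 to 1560 when each fish was left out. Without overlap of riverine and lake fish there were 37 sites, and 126 when 1 fish was allowed on the other side. The looser count has no share over all sites beside it, and nothing is read from the rise. The count of 8 sites called between littoral and benthic fish was 5 on log ratios, 3 with these populations alone and 2 without the 5 fish. Calls from riverine to littoral fish ranged from 565 to 809 and to benthic fish from 986 to 1156 over the alternatives. The median ratio of the nearest CG and the number of clusters stayed within their spread or within 1.5 times. The count of 0 called methylation genes lay between 0 and 1 when each fish was left out. The cause of these shifts was not tested. The planned results on genes near the sites and their alternatives were not run. No paired analysis was possible because no fish belongs to more than 1 population and the libraries used carry no number that pairs fish. Depth per site is unknown, so differences between single fish cannot be set against counting error.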
